A study of Mus musculus with 12 samples.

Results

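The metallothioneins Mt1 and Mt2, the glucocorticoid response genes Fkbp5, Tsc22d3, Sgk1 and Errfi1, and the glucocorticoid receptor gene Nr3c1 were followed through 12 mouse liver arrays. All probe sets annotated to exactly 1 of these 7 genes were taken, which gave 19 of the 45101 probe sets on the array (Mouse Genome 430 2.0). Mt1 had 2 of them, Mt2 had 1, Fkbp5 had 3, Tsc22d3 had 4, Sgk1 had 1, Errfi1 had 2 and Nr3c1 had 6. The study profiled male mice of the 129J background, 3 per group, each array being labelled a biological replicate. Its labels give liver tumors (HCC) of 24-month-old Iqgap2-/- mice (KO 24 months tumor), normal liver of 24-month-old wild-type mice (WT 24 months), normal liver of 6-month-old Iqgap2-/- mice (KO 6 months) and normal liver of 6-month-old wild-type mice (WT 6 months). The knockout lacks the gene of the scaffold protein IQGAP2, no other allele or agent is named, and in the oldest knockout group tumor and genotype cannot be told apart. Values are log2 intensities, so a difference of 1 on this scale is a doubling. No probe set's level is set against another's, because probe sets differ in affinity.

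Metallothioneins are small, cysteine-rich proteins that bind zinc and copper. The zinc-sensing factor MTF1 switches their genes on through metal response elements, and glucocorticoids and inflammatory cytokines raise them further in liver. Glucocorticoids act through the receptor encoded by Nr3c1, which is held ready by HSP90 and its co-chaperones and, once bound by hormone, recognises paired DNA elements. Fkbp5, Tsc22d3 and Sgk1 are among the genes it is known to induce in many tissues, and Errfi1 is a further hormone-responsive gene.

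The start regions of the metallothionein genes are shown because both genes are known for the metal elements they carry, and that of Sgk1 because it held 1 of the rare matches to a glucocorticoid element. Each covers 250 bases before to 50 bases after the transcription start, on the + strand, in GRCm38.p6 as given by RefSeq. The mice were of 129J background, whose bases may differ from this reference. Capitals mark the metal response core (TGCACNC or TGCGCNC, both strands searched) and the glucocorticoid element (GNACA and TGTNC with 3 bases between them), and no 2 matches overlapped.
Mt1 start region, chr8:94178839-94179138: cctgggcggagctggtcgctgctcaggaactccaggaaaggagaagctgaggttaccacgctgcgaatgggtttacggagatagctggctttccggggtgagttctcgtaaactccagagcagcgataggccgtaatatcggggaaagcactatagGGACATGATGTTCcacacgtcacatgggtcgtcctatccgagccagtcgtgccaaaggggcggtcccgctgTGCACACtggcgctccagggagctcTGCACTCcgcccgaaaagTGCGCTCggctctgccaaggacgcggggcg
Mt2 start region, chr8:94172368-94172667: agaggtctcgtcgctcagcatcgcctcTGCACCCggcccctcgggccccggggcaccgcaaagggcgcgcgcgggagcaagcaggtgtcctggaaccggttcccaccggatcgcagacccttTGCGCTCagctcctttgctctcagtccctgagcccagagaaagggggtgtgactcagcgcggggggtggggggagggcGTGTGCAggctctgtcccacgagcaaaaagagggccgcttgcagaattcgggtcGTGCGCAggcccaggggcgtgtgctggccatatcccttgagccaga
Sgk1 start region, chr10:21993640-21993939: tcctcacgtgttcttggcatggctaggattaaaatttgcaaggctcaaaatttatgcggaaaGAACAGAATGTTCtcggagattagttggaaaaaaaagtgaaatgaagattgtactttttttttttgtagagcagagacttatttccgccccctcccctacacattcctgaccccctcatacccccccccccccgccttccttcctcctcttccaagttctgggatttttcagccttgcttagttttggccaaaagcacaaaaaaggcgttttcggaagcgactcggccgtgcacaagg
Mt1 held 3 metal response cores, beginning at -23, 3 and 21 from the start, and 1 glucocorticoid element from -94 to -82. Mt2 held 4 metal response cores, beginning at -223, -128, -50 and 5, and no glucocorticoid element. Of the 32851 mouse start regions searched, 25.7% held a metal response core and 0.517% held 4 or more, while 0.475% held a glucocorticoid element. The search left out the start regions of 1 chromosome, so these shares do not cover the whole genome. Of the 7 genes, 6 had start regions among those searched, 14 in all. Nr3c1 had none among them, which, with 1 chromosome left out, says nothing about its own motifs. Among the other start regions of the members, those of Fkbp5, Tsc22d3 and Errfi1 held neither motif, and 1 further Sgk1 region held a single metal response core. A match describes letters in these windows only. Positions are counted from the start that RefSeq gives, and whether liver uses that start was not examined.

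The targeted gene was read first. Iqgap2 (1433885_at) measured 12.15, 12.05 and 12.15 in the arrays labelled KO 24 months tumor and 12.28, 12.30 and 11.92 in those labelled WT 24 months. It measured 8.12, 8.68 and 8.07 in the arrays labelled KO 6 months and 8.38, 8.24 and 8.33 in those labelled WT 6 months. The targeted transcript was therefore high in arrays labelled knockout and low in arrays labelled wild type, against 2 of the 4 labels. Whether this probe set lies in the deleted part of the gene is not given in the sources used here. Afp, the fetal liver protein used as a marker of liver tumors, averaged 6.21 in the arrays labelled KO 24 months tumor, 6.55 in those labelled WT 24 months, 6.74 in those labelled KO 6 months and 12.79 in those labelled WT 6 months. Both readings are what an exchange of the labels KO 24 months tumor and WT 6 months would give. Groups are therefore named by their labels below, and what each comparison would become after the exchange is given with Mt2. All 12 arrays correlated at 0.960 or above with each other, and the albumin probe set of hepatocytes lay between 15.03 and 15.19 in all of them. As signs of RNA quality, the 3' minus 5' control signal ran from 0.043 to 0.40 for Gapdh and from 1.00 to 1.64 for Actb, with overlapping ranges except for Actb, where WT 24 months (from 1.29) lay above KO 6 months (up to 1.22).

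Mt2 was the member that differed most between groups. Its probe set (1428942_at) measured 8.96, 9.0 and 9.03 in the arrays labelled KO 24 months tumor. It measured 12.71, 12.89 and 13.68 in those labelled WT 24 months, 6.97, 7.34 and 8.03 in those labelled KO 6 months, and 9.04, 11.76 and 9.27 in those labelled WT 6 months. No array labelled WT 24 months overlapped any other group, and the arrays labelled KO 6 months lay below all others. Replicate 2 of WT 6 months stood 2.49 above the next array of its group. Relative to WT 24 months, Mt2 was lower in KO 24 months tumor by a log2 difference of -4.10 (SE 0.58, 17.1-fold, limma adjusted p = 0.0220). It was lower in KO 6 months than in WT 6 months (-2.58, SE 0.58, 5.97-fold, limma adjusted p = 0.0139) and higher in WT 24 months than in WT 6 months (3.07, SE 0.58, 8.40-fold, limma adjusted p = 0.00625). Between KO 24 months tumor and KO 6 months the difference was 1.55 (SE 0.58) with a limma adjusted p of 0.725. If the labels are exchanged, the first value compares young with old wild-type liver, the second young knockout liver with knockout tumor, the third old wild-type liver with knockout tumor, and the last young wild-type with young knockout liver.

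**Figure D1:**
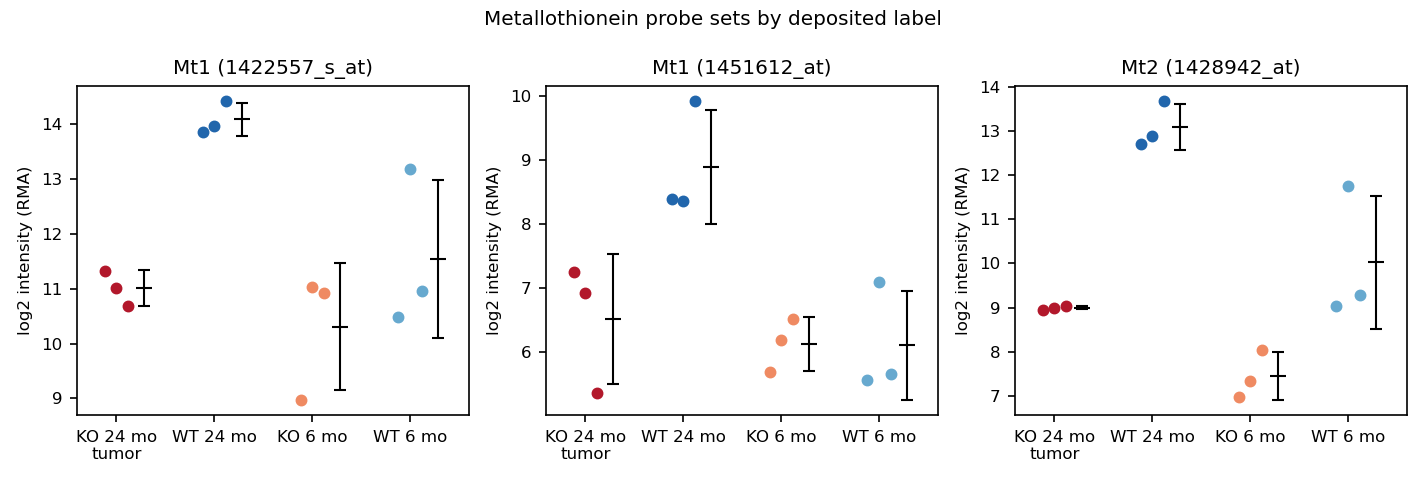
Log2 intensity (RMA) of both Mt1 probe sets and the Mt2 probe set in each array (points), with the mean and SD of the 3 arrays of a labelled group (black bars). For all 3 probe sets the arrays labelled WT 24 months lie above every other array, and replicate 2 of WT 6 months lies above the other arrays of its group.

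Some of the Mt2 calls did not hold when 1 array was left out. That of WT 24 months against WT 6 months held in every such fit (limma adjusted p up to 0.0257). The call between KO 24 months tumor and WT 24 months was lost without KO 24 months tumor replicate 1 (-4.08, limma adjusted p = 0.0935), replicate 2 (-4.10, 0.127) or replicate 3 (-4.12, 0.0884), although the difference itself barely moved. Without KO 6 months replicate 1 the young comparison gave -2.34 (limma adjusted p = 0.0579). Without WT 6 months replicate 2 it gave -1.71 (limma adjusted p = 0.00778), and WT 24 months against WT 6 months gave 3.94 (limma adjusted p = 4.3e-05).

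Mt1 was also highest in the arrays labelled WT 24 months. Its brighter probe set (1422557_s_at) measured 11.33, 11.02 and 10.68 in the arrays labelled KO 24 months tumor, against 13.86, 13.97 and 14.42 in those labelled WT 24 months. It measured 8.97, 11.03 and 10.92 in the arrays labelled KO 6 months, against 10.48, 13.19 and 10.95 in those labelled WT 6 months. The suffix of this probe set marks sequences that can be shared with a related transcript. The dimmer probe set (1451612_at) measured 7.26, 6.92 and 5.36 in KO 24 months tumor, 8.40, 8.36 and 9.93 in WT 24 months, 5.68, 6.18 and 6.51 in KO 6 months, and 5.57, 7.09 and 5.65 in WT 6 months. With either probe set the arrays labelled WT 24 months stood clear of the other 9, which overlapped among themselves, a pattern that an exchange of labels does not alter. WT 24 months exceeded WT 6 months by 2.54 (SE 0.65, limma adjusted p = 0.0326) on the brighter and 2.79 (SE 0.57, limma adjusted p = 0.00978) on the dimmer probe set. KO 24 months tumor was set against WT 24 months at -3.07 (SE 0.65, limma adjusted p = 0.0828) and -2.38 (SE 0.57, limma adjusted p = 0.109), so neither passed although the arrays did not overlap. KO 6 months against WT 6 months gave -1.23 (SE 0.65) and 0.02 (SE 0.57), with 95% intervals of -2.66 to 0.20 and -1.22 to 1.27.

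The Mt1 results moved with single arrays. On the brighter probe set the call for WT 24 months against WT 6 months was lost without KO 24 months tumor replicate 1 (limma adjusted p = 0.0502) or 2 (0.0515), WT 6 months replicate 1 (0.113) or 3 (0.106), or WT 24 months replicate 1 (0.0592), 2 (0.0677) or 3 (0.0753). Without WT 6 months replicate 2 the difference between KO 24 months tumor and WT 24 months stayed at -3.07 and passed (limma adjusted p = 0.0315). Leaving out 1 array at a time moved WT 24 months against WT 6 months between 2.01 (without WT 6 months replicate 1) and 3.37 (without replicate 2), and KO 6 months against WT 6 months between -1.76 and -0.41 (without the same arrays).

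Ordered by mean, Mt2 ran WT 24 months, WT 6 months, KO 24 months tumor and KO 6 months. Only the first pair of neighbours differed by the test: KO 24 months tumor lay -1.03 from WT 6 months (SE 0.58, limma adjusted p = 0.281), and the gap between KO 24 months tumor and KO 6 months is given above. The ends of this order, WT 24 months against KO 6 months, lay 5.65 apart (SE 0.58, 50.1-fold, limma adjusted p = 0.00386). That pair, and KO 24 months tumor against WT 6 months, were added after the values were seen and mix genotype with age by label. An exchange of the labels KO 24 months tumor and WT 6 months would leave the first of these pairs as it is. For Mt1 the same pair lay 3.77 apart on the brighter probe set (SE 0.65, limma adjusted p = 0.0597), where it also marks the ends of the order. On the dimmer probe set it lay 2.77 apart (SE 0.57, limma adjusted p = 0.0882), and the lowest mean there was that of WT 6 months.

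Markers of inflammation and of immune cells were read beside the metallothioneins. The 16 genes listed as acute phase and interleukin-6 response genes, which hold secreted liver proteins and signalling genes such as Socs3 and Stat3, summed to log2 levels of 16.65 to 16.73 in KO 24 months tumor, 16.99 to 17.57 in WT 24 months, 16.66 to 16.73 in KO 6 months and 16.47 to 17.07 in WT 6 months, with the last value in replicate 2. Lcn2 (lipocalin 2, an iron-siderophore binder induced in acute phase liver) was the 1 gene of this list that passed between KO 24 months tumor and WT 24 months, at -5.50. Of all probe sets, 0.115% were lower in that comparison. In KO 6 months against WT 6 months, Mt2 was also called lower. There 6 of the 16 were lower and 1 was higher, beside 6.03% and 6.08% of all probe sets. The list median was -0.51 beside 0.05 over all genes. Lcn2 (-6.80), the cytokine signalling inhibitor gene Socs3 (-1.76) and the lipopolysaccharide binding protein gene Lbp (-1.19) were among the lower ones, and the iron hormone gene Hamp (4.26) was the higher one. The 8 Kupffer cell markers summed to 11.07 to 11.47 in KO 24 months tumor, 11.92 to 15.25 in WT 24 months, 11.67 to 11.84 in KO 6 months and 11.68 to 12.37 in WT 6 months. The 4 neutrophil markers measured, of 6 listed, spanned 7.41 to 8.21 in KO 24 months tumor, 8.56 to 11.50 in WT 24 months, 7.48 to 7.62 in KO 6 months and 7.77 to 11.17 in WT 6 months, with the lowest of these in replicate 2 and the highest in replicate 1. The highest Kupffer sum was in WT 24 months replicate 3, also the highest array for Mt1 and Mt2. Without that array Mt2 still gave -3.80 for KO 24 months tumor against WT 24 months (limma adjusted p = 0.0345) and 2.78 for WT 24 months against WT 6 months (limma adjusted p = 0.0185). None of the Kupffer markers passed between KO 24 months tumor and WT 24 months, and arrays give no true 0 for any of them. In whole liver, fewer cells of a type and less RNA per cell cannot be told apart, and the part of the acute phase genes and the other markers in the metallothionein differences was not tested.

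Fkbp5, the HSP90 co-chaperone that lowers hormone binding by the receptor, had its highest values in the arrays labelled 24 months. Its brighter probe set (1416125_at) measured 9.90, 10.22 and 10.51 in the arrays labelled KO 24 months tumor, 10.22, 11.55 and 10.73 in those labelled WT 24 months, 8.08, 8.97 and 9.32 in those labelled KO 6 months and 8.99, 9.66 and 9.46 in those labelled WT 6 months. Every array labelled 24 months lay above every array labelled 6 months. A second probe set (1448231_at) measured 8.58, 9.03 and 8.81 in KO 24 months tumor, 8.82, 10.29 and 9.51 in WT 24 months, 7.65, 7.97 and 8.30 in KO 6 months and 8.01, 8.23 and 7.98 in WT 6 months, with the same separation. After an exchange of labels, the arrays with higher Fkbp5 would be all those of wild-type mice and the lower ones all those of knockout mice. WT 24 months exceeded WT 6 months by 1.47 on both (SE 0.36 and 0.30, limma adjusted p = 0.0264 and 0.00952). KO 24 months tumor against KO 6 months gave 1.42 (SE 0.36) and 0.83 (SE 0.30), with limma adjusted p of 0.473 and 0.702. The first of these Fkbp5 calls was lost without WT 6 months replicate 1 (1.28, limma adjusted p = 0.0928) or 3 (1.51, 0.0567) or WT 24 months replicate 2 (1.11, 0.0815). The second Fkbp5 probe set passed between KO 24 months tumor and WT 24 months only without WT 24 months replicate 1 (-1.09, limma adjusted p = 0.0437). The remaining probe set (1447736_at) was dim, at 3.11 to 3.48 over all arrays, and passed no test.

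Sgk1, a kinase that promotes sodium transport and cell survival, had a pattern of its own. It measured 7.87, 7.64 and 7.77 in the arrays labelled KO 24 months tumor, against 8.58, 9.78 and 9.76 in those labelled WT 24 months. In the young groups it measured 8.40, 9.16 and 8.58 in those labelled KO 6 months, against 8.01, 7.61 and 6.24 in those labelled WT 6 months. Sgk1 was thus low in KO 24 months tumor and WT 6 months, whose ranges overlapped, and high in the other groups, whose ranges also overlapped. WT 24 months exceeded WT 6 months by 2.09 (SE 0.42, 4.26-fold, limma adjusted p = 0.00963), and KO 6 months exceeded WT 6 months by 1.43 (SE 0.42, limma adjusted p = 0.0491). KO 24 months tumor gave -1.61 against WT 24 months (SE 0.42, limma adjusted p = 0.135), though these arrays did not overlap, and -0.95 against KO 6 months (SE 0.42, limma adjusted p = 0.813). The genotype difference at 24 months minus that at 6 months was -3.04 (SE 0.60, limma adjusted p = 0.0178), and this interaction keeps its value when the labels are exchanged.

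The Sgk1 call between KO 6 months and WT 6 months was fragile. It was lost without KO 6 months replicate 1 (limma adjusted p = 0.0763), 2 (0.158) or 3 (0.106), KO 24 months tumor replicate 1 (0.0710), 2 (0.0688) or 3 (0.0678), or WT 6 months replicate 2 (0.0750) or 3 (0.129). Without WT 24 months replicate 1, KO 24 months tumor against WT 24 months passed (-2.01, limma adjusted p = 0.0338). The interaction missed the threshold without KO 6 months replicate 2 (-2.82, limma adjusted p = 0.0545) or KO 24 months tumor replicate 2 (-2.99, limma adjusted p = 0.0544).

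Tsc22d3, which encodes the anti-inflammatory leucine zipper protein GILZ, was lowest in the arrays labelled WT 6 months. Probe set 1425281_a_at measured 10.01, 10.01 and 9.74 in KO 24 months tumor, 9.86, 10.48 and 9.96 in WT 24 months, 10.52, 10.24 and 10.53 in KO 6 months and 9.39, 9.39 and 8.62 in WT 6 months. No array of WT 6 months reached the other groups. KO 6 months exceeded WT 6 months by 1.30 (SE 0.22, limma adjusted p = 0.00254), WT 24 months exceeded WT 6 months by 0.97 (SE 0.22, limma adjusted p = 0.0161), and KO 24 months tumor exceeded WT 6 months by 0.79 (SE 0.22, limma adjusted p = 0.0312). The interaction was -1.48 (SE 0.31, limma adjusted p = 0.0231). The brightest Tsc22d3 probe set (1420772_a_at) measured 11.24, 10.76 and 10.86 in KO 24 months tumor, 11.08, 11.52 and 11.14 in WT 24 months, 11.53, 11.36 and 11.27 in KO 6 months and 10.22, 11.04 and 9.86 in WT 6 months. Its WT 6 months replicate 2 fell within the range of KO 24 months tumor, and KO 6 months exceeded WT 6 months by 1.01 (SE 0.25, limma adjusted p = 0.0233) while WT 24 months against WT 6 months gave 0.87 (SE 0.25, limma adjusted p = 0.0553). The remaining probe sets (1425557_x_at at 6.93 to 7.44 and 1444365_at at 4.30 to 4.78) passed no test.

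Tsc22d3 calls also changed when 1 array was left out. On 1420772_a_at the difference between KO 6 months and WT 6 months missed the threshold without KO 6 months replicate 1 (limma adjusted p = 0.0804), 2 (0.0637) or 3 (0.0548) or WT 6 months replicate 1 (0.0684) or 3 (0.0739). That of WT 24 months against WT 6 months passed without WT 6 months replicate 2 (1.21, limma adjusted p = 0.00304). On 1425281_a_at WT 24 months against WT 6 months gave 0.78 without WT 24 months replicate 2 (limma adjusted p = 0.0549), and KO 24 months tumor against WT 6 months was lost without KO 24 months tumor replicate 1 (0.101) or 2 (0.0998) or WT 6 months replicate 3 (0.0878). Its interaction was lost without KO 6 months replicate 1 (-1.44, limma adjusted p = 0.0586) or 3 (-1.43, 0.0686), or KO 24 months tumor replicate 1 (-1.53, 0.0514), 2 (-1.53, 0.0528) or 3 (-1.39, 0.0671).

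Errfi1, the feedback inhibitor of the EGF receptor also called MIG6, lay in a narrow range in every group except WT 6 months. Its brighter probe set (1416129_at) measured 13.77, 13.72 and 13.87 in the arrays labelled KO 24 months tumor, 13.84, 13.79 and 13.80 in those labelled WT 24 months, 13.82, 13.91 and 13.91 in those labelled KO 6 months and 12.92, 13.36 and 12.06 in those labelled WT 6 months. The second (1419816_s_at) measured 12.27, 12.52 and 12.66 in KO 24 months tumor, 12.57, 12.42 and 12.68 in WT 24 months, 12.64, 12.71 and 12.87 in KO 6 months and 11.61, 11.66 and 10.35 in WT 6 months. On both probe sets the arrays of WT 6 months lay below the other 9, and replicate 3 was the lowest. KO 6 months exceeded WT 6 months by 1.10 (SE 0.24, limma adjusted p = 0.0117) and 1.53 (SE 0.28, limma adjusted p = 0.00428). WT 24 months exceeded WT 6 months by 1.03 (SE 0.24, limma adjusted p = 0.0193) and 1.35 (SE 0.28, limma adjusted p = 0.0106), and KO 24 months tumor exceeded it by 1.01 (limma adjusted p = 0.0159) and 1.28 (limma adjusted p = 0.0104). Between KO 24 months tumor and WT 24 months the differences were -0.02 and -0.07, with 95% intervals of -0.55 to 0.50 and -0.68 to 0.54. These intervals rest on 1 spread shared by all 12 arrays. On the brighter probe set the SD was 0.078 in KO 24 months tumor, 0.025 in WT 24 months and 0.66 in WT 6 months. After an exchange of labels, the arrays with low Errfi1 and low Tsc22d3 would be the tumors. On the brighter probe set the call for WT 24 months against WT 6 months was lost without WT 24 months replicate 1 (limma adjusted p = 0.0501), and that of KO 24 months tumor against WT 6 months without KO 24 months tumor replicate 3 (limma adjusted p = 0.0521).

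**Figure D2:**
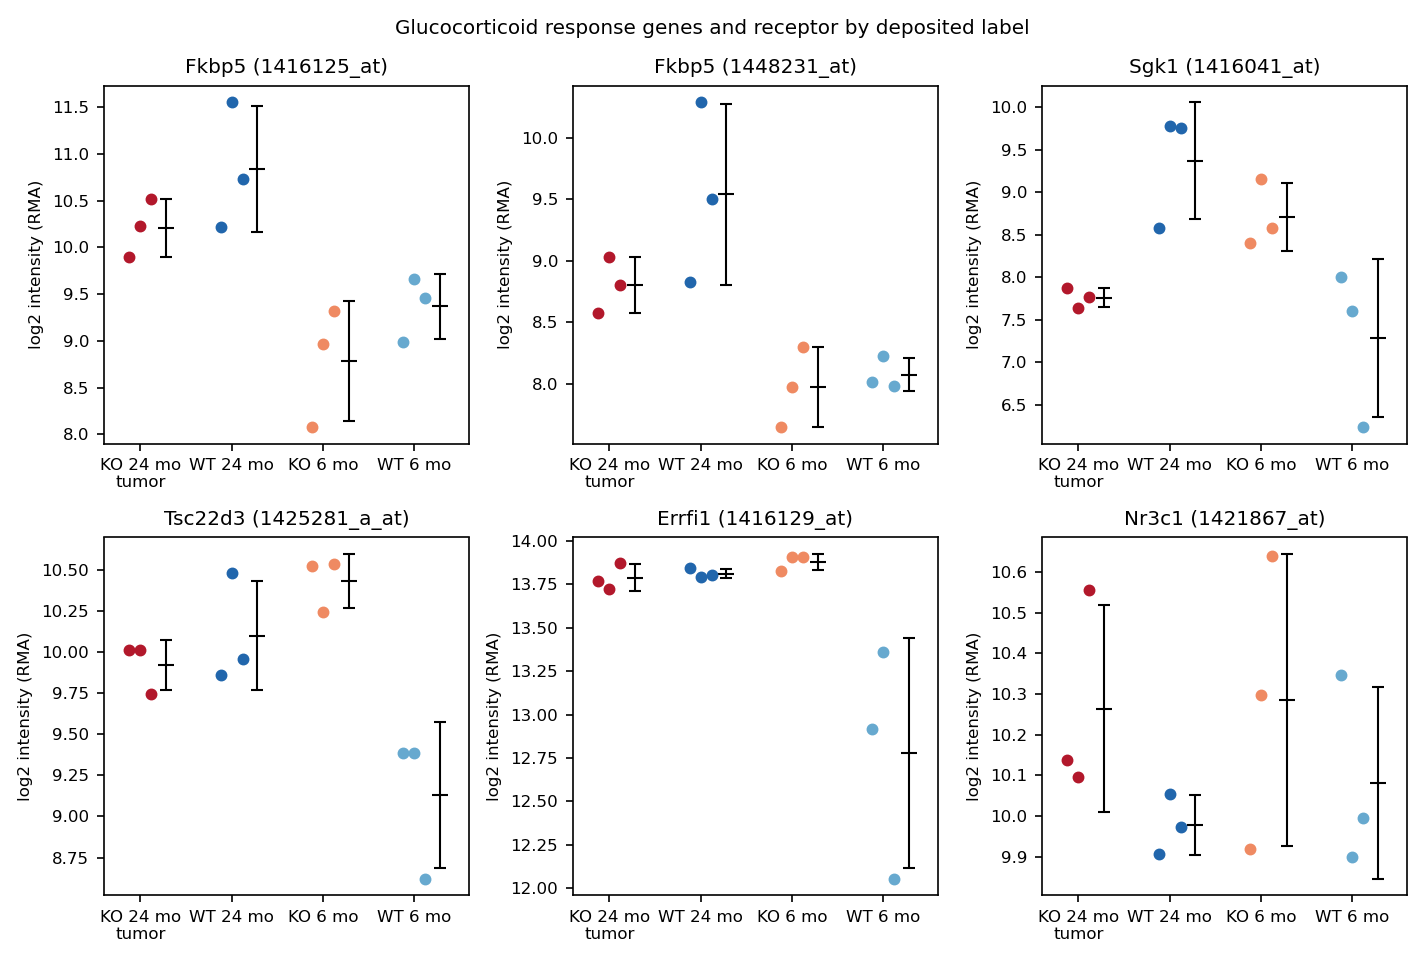
Log2 intensity (RMA) of 6 probe sets of Fkbp5, Sgk1, Tsc22d3, Errfi1 and Nr3c1 in each array (points), with the mean and SD of the 3 arrays of a labelled group (black bars). Each panel has its own vertical range. Fkbp5 separates by labelled age (by genotype if the labels are exchanged), Sgk1 is low in KO 24 months tumor and WT 6 months, Tsc22d3 and Errfi1 are low in WT 6 months, and the Nr3c1 groups overlap except KO 24 months tumor and WT 24 months.

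Nr3c1, the receptor itself, passed none of the tests on any of its 6 probe sets. The brightest (1421867_at) measured 10.14, 10.10 and 10.56 in the arrays labelled KO 24 months tumor, 9.91, 10.05 and 9.97 in those labelled WT 24 months, 9.92, 10.30 and 10.64 in those labelled KO 6 months and 10.35, 9.90 and 10.00 in those labelled WT 6 months. The others ranged over 9.57 to 9.90 (1460303_at), 7.67 to 8.39 (1457635_s_at), 6.88 to 8.62 (1421866_at), 4.26 to 5.32 (1453860_s_at) and 4.18 to 5.10 (1431378_at). The smallest limma adjusted p of any of them was 0.0633, in the group comparisons run. Because the tests missed their threshold, these data do not show that receptor transcript was equal in all groups.

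**Figure D3:**
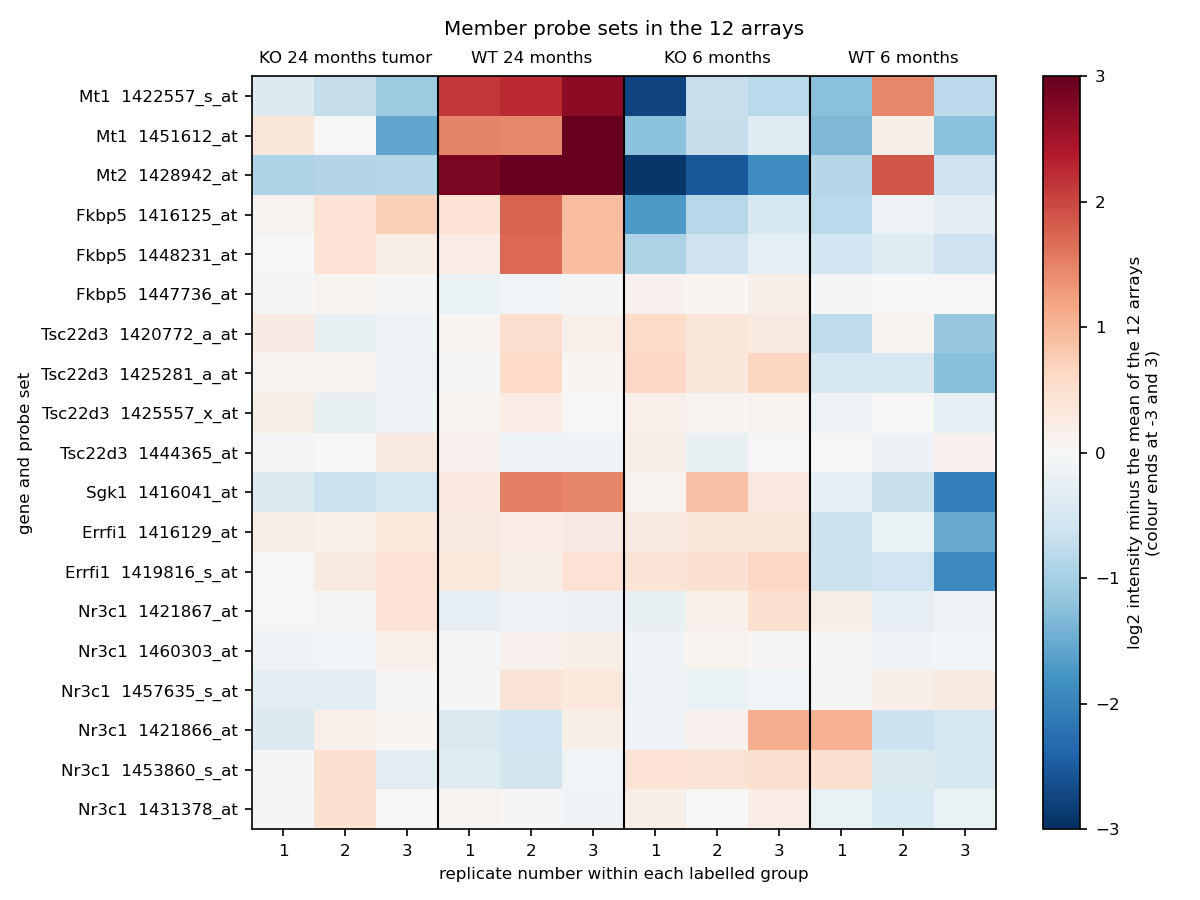
Log2 intensity of the 19 probe sets (rows) in the 12 arrays (columns, by labelled group and replicate number), each row minus its mean over the 12 arrays, with colours ending at -3 and 3. The metallothionein rows are reddest in WT 24 months, and the Errfi1 rows and brighter Tsc22d3 rows are bluest in WT 6 months replicate 3.

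Over all 19 probe sets, the count of members followed the comparison. Called below means a fold of at least 3 with a limma adjusted p of 0.05 or less, and passing means that adjusted p alone. KO 24 months tumor against WT 24 months gave 1 member called (Mt2, lower), against 0.06% of all 45037 probe sets called. At the adjusted p alone, 0 members were higher and 1 lower, beside 0.122% of all probe sets higher and 0.115% lower. KO 6 months against WT 6 months gave 1 called (Mt2, lower), beside 1.79% of all. There 5 members were higher and 1 lower, beside 6.08% and 6.03%. WT 24 months against WT 6 months gave 4 called, both Mt1 probe sets, Mt2 and Sgk1, all higher, beside 1.65%. There 9 members were higher and 0 lower, beside 3.8% and 4.96%. A fit of only those 2 groups left 0 called and 0 passing. KO 24 months tumor against KO 6 months gave 0 members called (0.0133% of all) and 0 passing by limma, beside 0.0178% of all probe sets higher and 0.00222% lower, with 5 members at an unadjusted p under 0.05 (6.11% of all). The added pairs gave 3 members higher and 0 lower for KO 24 months tumor against WT 6 months (7.19% and 6.95% of all) and 1 higher and 0 lower for WT 24 months against KO 6 months (0.0777% and 0.0577% of all). The interaction passed for 2 members (3.15% of all), and an F test of any difference among the 4 groups for 9 (12.6% of all). The comparisons share groups of arrays, so these counts are not independent of each other.

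**Figure D4:**
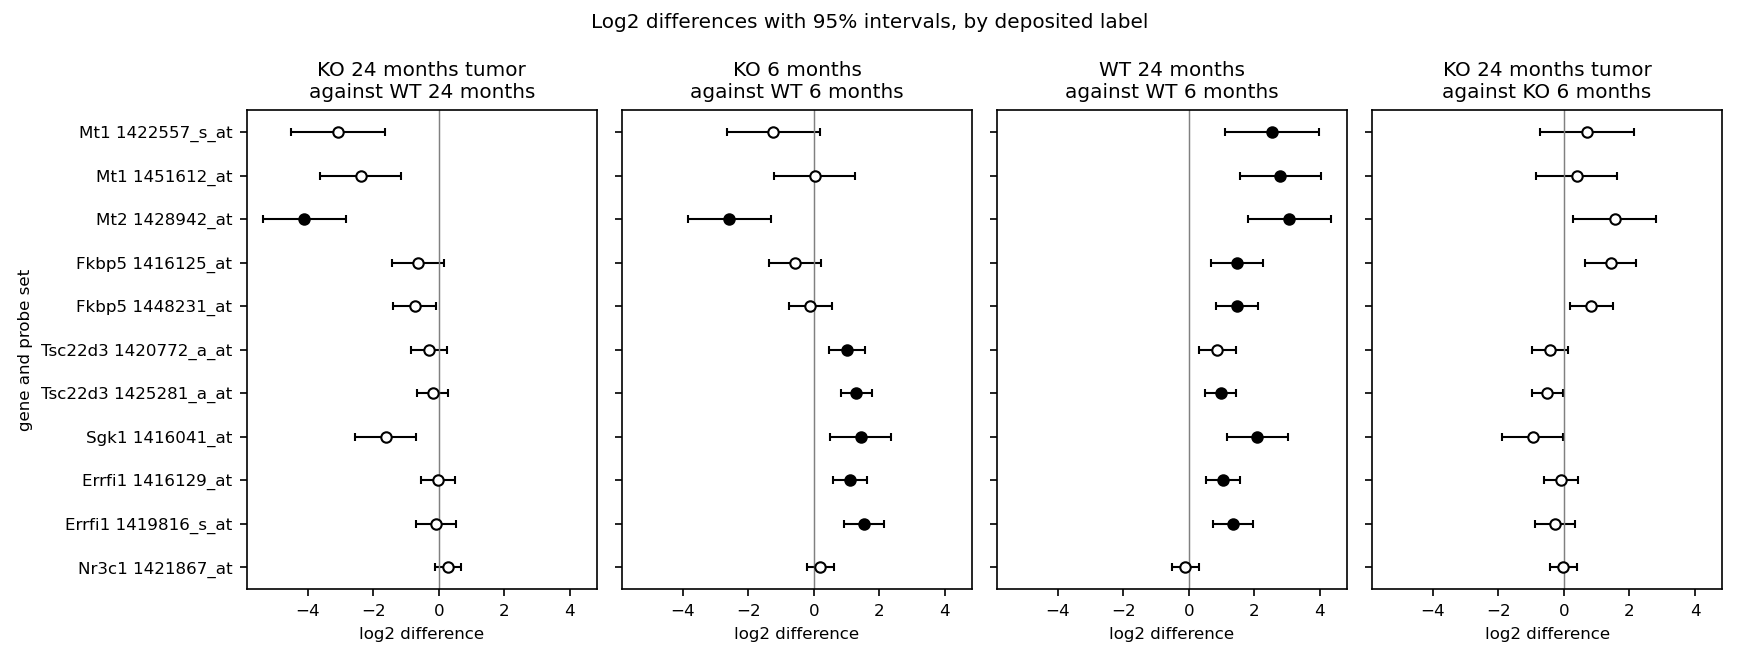
Log2 differences (points) with 95% intervals (bars) of 11 probe sets in 4 comparisons by label, a filled point marking a limma adjusted p of 0.05 or less. In WT 24 months against WT 6 months 9 of the points are filled, and in KO 24 months tumor against KO 6 months none are.

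The other glucocorticoid targets gave both directions. Of 24 listed genes known to rise with the hormone in liver or other tissues, 23 were measured. In WT 24 months against WT 6 months 12 were higher and 2 lower, beside 3.8% and 4.96% of all probe sets. The list median was 0.76 beside 0.01 over all genes. The strongest by adjusted p were Pck1, which commits carbon to glucose synthesis (3.19), the lysophospholipid carrier Mfsd2a (5.63), the MAP kinase phosphatase Dusp1 (2.67) and the aminotransferase Got1 (4.23). Lower there were Glul, which makes glutamine (-1.11), and Pdk4, which restrains pyruvate oxidation (-2.33). In KO 6 months against WT 6 months 11 were higher and 5 lower, beside 6.08% and 6.03% of all probe sets. Among the targets that passed were Pck1 (3.04), Mfsd2a (5.37), Got1 (4.76) and Glul (-1.86), and the list median was 0.97 beside 0.05. In KO 24 months tumor against WT 24 months none was higher and 2 were lower, beside 0.122% and 0.115% of all probe sets. The list median was -0.54 beside 0.04. The lower targets were Igfbp1, a binder of insulin-like growth factors (-4.01, limma adjusted p = 0.0151), and Cebpd, a transcription factor of the acute phase (-1.59, limma adjusted p = 0.0458). None of the 23 passed in KO 24 months tumor against KO 6 months, where the median was -0.46 beside 0.00. Of the 9 target genes whose interaction passed, 8 were negative. Over the 23 measured the median interaction was -1.06 beside -0.003 over all genes, and 3.15% of all probe sets passed it.

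**Figure D5:**
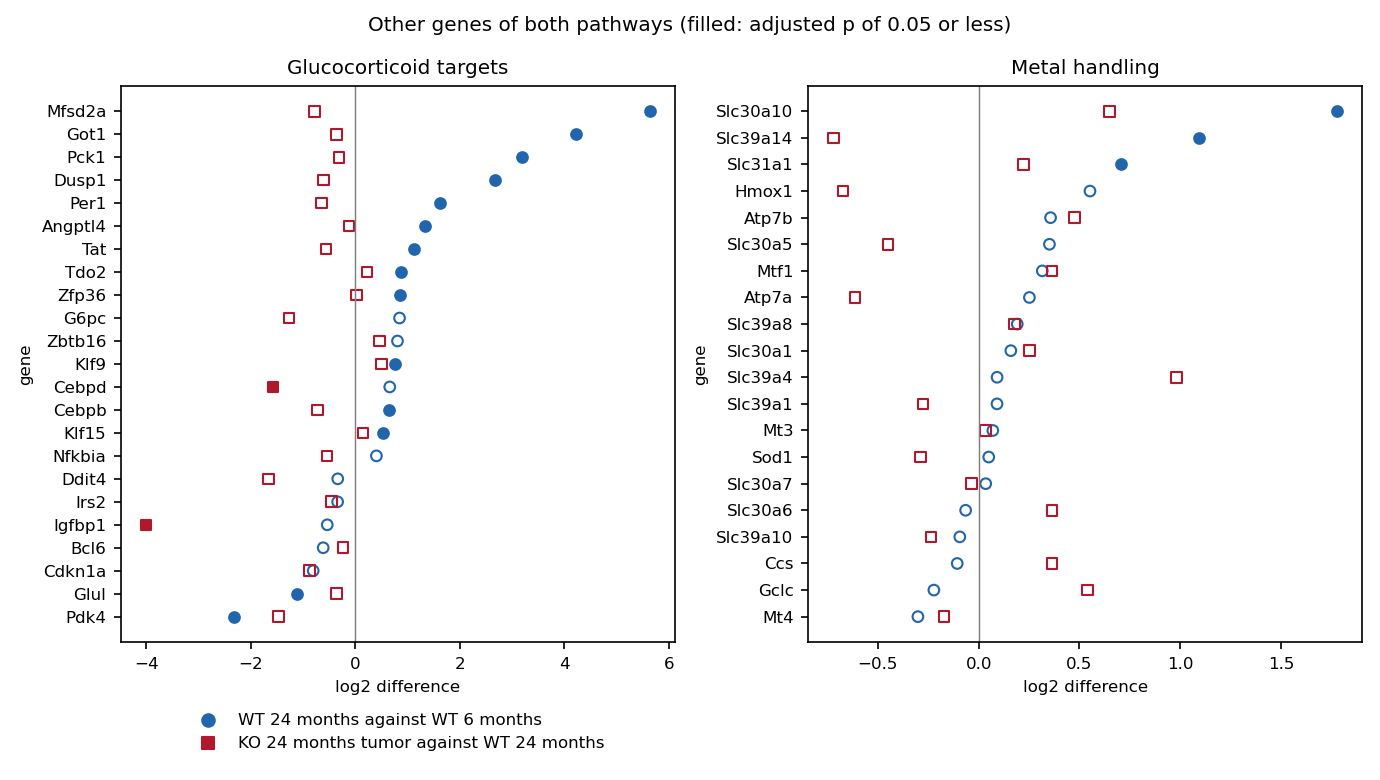
Log2 differences of 23 other glucocorticoid targets (left) and 20 metal handling genes (right), for WT 24 months against WT 6 months (circles) and KO 24 months tumor against WT 24 months (squares), with filled symbols at a limma adjusted p of 0.05 or less. Among the glucocorticoid targets 14 circles and 2 squares are filled, and among the metal handling genes 3 circles and no squares are.

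The genes that set hormone supply showed a split. Hsd11b1, the enzyme that regenerates active hormone in liver, measured 13.44, 13.48 and 13.51 in KO 24 months tumor, 13.65, 13.49 and 13.08 in WT 24 months, 13.44, 13.38 and 13.46 in KO 6 months and 11.95, 11.39 and 10.71 in WT 6 months. It was higher by 2.05 in WT 24 months than in WT 6 months (limma adjusted p = 0.000342) and by 2.08 in KO 6 months than in WT 6 months (limma adjusted p = 0.000278). Serpina6, the plasma carrier of glucocorticoids, ran the other way, at -1.94 in WT 24 months against WT 6 months (limma adjusted p = 0.00287). Of the 9 measured genes of the receptor machinery, of 13 listed, 1 was higher and 2 lower in that comparison, the second being the mineralocorticoid receptor gene Nr3c2 (-0.86). The median of the 9 was -0.09 there, beside 0.01 over all genes, and 3.8% of all probe sets were higher and 4.96% lower. In KO 6 months against WT 6 months 2 were higher, the other being the steroid-reducing enzyme gene Akr1d1 (1.45), and the chaperone gene Hsp90aa1 was lower (-0.76). The median was -0.05 there, beside 0.05, and 6.08% of all probe sets were higher and 6.03% lower. None passed in KO 24 months tumor against WT 24 months or against KO 6 months.

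Most metal handling genes did not pass any test by label. All 20 listed genes were measured, and none passed in KO 24 months tumor against WT 24 months, the comparison in which Mt2 was lower by 4.10 on the log2 scale. In WT 24 months against WT 6 months 3 were higher and 0 lower: the manganese exporter Slc30a10 (1.78), the zinc and manganese importer Slc39a14 (1.09) and the copper importer Slc31a1 (0.71). The list median was 0.13 there beside 0.01 over all genes, and 3.8% of all probe sets were higher. In KO 6 months against WT 6 months 4 were higher, Slc30a10 (2.40), Slc31a1 (0.88), the copper-transporting ATPase gene Atp7b (0.76) and Mtf1 (0.60). The list median was 0.20 there beside 0.05, and 6.08% of all probe sets were higher. Mtf1, the metal sensor, averaged 8.27 in KO 24 months tumor, 7.90 in WT 24 months, 8.19 in KO 6 months and 7.59 in WT 6 months, an order other than that of Mt1 and Mt2. The related metallothionein genes Mt3 and Mt4 were dim, between 4.90 and 5.55 and between 3.57 and 4.46, and passed no test. Among 13 partners of the kinase and of the EGF receptor, 0 were higher and 2 lower in WT 24 months against WT 6 months, Ndrg1, a stress-responsive gene (-2.47), and Sgk2, a relative of Sgk1 (-1.19), and none passed in the other comparisons planned by label. In WT 24 months against WT 6 months their median was 0.15 beside 0.01, and 4.96% of all probe sets were lower.

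Endothelial and stellate marker sums also set WT 6 months apart. In such sums brighter probe sets weigh more. The 8 endothelial markers summed to 11.79 to 11.99 in KO 24 months tumor, 11.43 to 12.46 in WT 24 months, 11.91 to 12.10 in KO 6 months and 10.06 to 10.74 in WT 6 months, and 7 of them were higher in WT 24 months than in WT 6 months. Their median difference was 1.49 beside 0.01 over all genes, and 3.8% of all probe sets were higher. The 8 stellate cell markers summed to 11.93 to 12.04 in KO 24 months tumor, 11.98 to 12.57 in WT 24 months, 12.40 to 12.46 in KO 6 months and 9.69 to 10.88 in WT 6 months. Of them 5 were higher in WT 24 months than in WT 6 months and 3 did not pass, with a median of 0.93 beside 0.01. The collagen gene Col1a1 averaged 5.72 in WT 6 months and 5.15 to 5.47 in the other groups. Col3a1 averaged 7.92 in WT 6 months and 7.74 in WT 24 months. The arrays with low Errfi1 and Tsc22d3 were therefore also those with low endothelial and stellate sums, and their part in those differences was not tested. The Kupffer, neutrophil, lymphocyte (9.13 to 9.56) and cholangiocyte (7.64 to 8.59) sums of WT 6 months overlapped those of other groups. The 7 hepatocyte markers measured summed to 17.02 to 17.15 in WT 6 months and 17.20 to 17.37 in the other arrays. Of these 7, 1 was higher in WT 24 months than in WT 6 months and 6 did not pass. Cps1 averaged 11.35 in WT 6 months and 14.27 to 14.29 in the other groups. Apob averaged 12.77 in WT 6 months, above KO 24 months tumor (11.85) and KO 6 months (11.74) and below WT 24 months (13.19).

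Genes with the most similar course across the 12 arrays were listed as a description, by Pearson's r among 3702 genes that were bright and variable enough. Mt1 was most like Slc39a14 (0.87), the growth factor precursor gene Grn (0.86) and the chemokine gene Cxcl1 (0.85). Mt2 was most like Nos1ap (0.87), the immune regulator gene Nlrc5 (0.87) and the lysosomal phospholipase gene Pla2g15 (0.86). Fkbp5 was nearest to Erf (0.89), Slc39a14 (0.87) and Ccp110 (0.86), and Tsc22d3 to Btg1 (0.94), Kyat3 (0.91) and Ctf1 (0.90). Sgk1 was nearest to Rasgef1b (0.95), the amino acid transporter gene Slc38a2 (0.92) and the hormone-induced aminotransferase gene Tat (0.89). Errfi1 was nearest to the iron hormone gene Hamp (0.98), Cadps2 (0.98) and the urea cycle gene Cps1 (0.98), all lowest in WT 6 months, and Nr3c1 to Prkaa2 (0.79), Gsdme (0.74) and Ireb2 (0.72). The 12 arrays fall into 4 groups, so these values carry the group differences.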

How the data were processed

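RNA from the 12 livers was hybridised to Mouse Genome 430 2.0 arrays. The authors deposited log2 intensity per probe set, made by RMA, which corrects background, quantile normalizes the arrays and summarizes the probes. Array medians lay between 5.41 and 5.45, and no other filter was found. Arrays carry no counting depth, so their number limits the precision.

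Groups came from the deposited labels. Of 45101 probe sets, 64 controls were left out. limma 3.58.1 in R 4.3.3 fitted 4 group means to the other 45037, and p-values were adjusted over all of them (Benjamini-Hochberg). The fold of 3 and adjusted p of 0.05 follow the study's thresholds, but its SAM permutation method was not used. With 3 arrays against 3 an exact two-sided permutation test cannot go below 0.1. Genes in lists are represented by their brightest probe set. The fit was tested on simulated data. Replicate numbers were checked for pairing. Alternatives changed the fit, centring, filter, probe set choice, fold, labels and arrays. Text names every member probe set and, of each list, the 4 genes with the smallest adjusted p, all that passed where 5 or fewer did, and fixed pathway genes. The members and lists were chosen with earlier results of these data known.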

Additional observations from a re-analysis of the deposited data

Results flagged for a closer look

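The genotype difference at 24 months minus that at 6 months passed the limma test for 2 member probe sets, which means that the difference between the labelled genotypes differed between the labelled ages. By label, the genotype difference at 24 months is also one of tumor against normal liver. For Sgk1 it was -3.04, from -1.61 at 24 months (KO 24 months tumor against WT 24 months) and 1.43 at 6 months (KO 6 months against WT 6 months). For Tsc22d3 (1425281_a_at) it was -1.48, from -0.18 at 24 months and 1.30 at 6 months. The brightest Tsc22d3 probe set (1420772_a_at) gave -1.31 and did not pass (limma adjusted p = 0.0810). These interaction values are the same with the labels KO 24 months tumor and WT 6 months exchanged. The exchange leaves the sums on either side of this contrast in place, but it changes the parts given for each age. Beside the 2 that passed, 3.15% of all probe sets passed the same test.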

How the results depend on the processing

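Replicate numbers did not pair the arrays: deviations of same-numbered arrays correlated at -0.24 to 0.19 (median -0.03), over 0.1 in 3 of 18 pairs. With the number as a replicate block, all probe sets called in KO 24 months tumor against KO 6 months came to 2, the Sgk1 difference in KO 6 months against WT 6 months missed the threshold (limma adjusted p = 0.0661), and no other call of a named probe set changed.

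Member counts below are called, then passing. Fitting only the 2 groups compared gave 2 and 2 for KO 24 months tumor against WT 24 months (13 called of all), 0 and 0 for WT 24 months against WT 6 months, and 1 passing for KO 24 months tumor against KO 6 months (28 of all). That fit has fewer arrays to estimate the spread. Centring on 3 of 5 housekeeping genes gave 3 and 4 for KO 24 months tumor against WT 24 months (198 of all), 4 for the interaction and 34 of all called for KO 24 months tumor against KO 6 months, and turned the sign of Errfi1 1416129_at in KO 24 months tumor against WT 24 months (0.015) and of Mt1 1451612_at in KO 6 months against WT 6 months (-0.072). A fold of 2 called 61, 1801 and 1659 of all in KO 24 months tumor against WT 24 months, KO 6 months against WT 6 months and WT 24 months against WT 6 months, with 6 and 8 members called in the last pair. With 1 probe set per gene the last pair called 476 and 440 of all, the interaction passed for 1 member and the F test for 5, since fewer features were tested. With the labels exchanged, members called were 4, 0, 1 and 1, members passing 9, 0, 1 and 6, and all called 741, 6, 27 and 806 in KO 24 months tumor against WT 24 months, KO 6 months against WT 6 months, WT 24 months against WT 6 months and KO 24 months tumor against KO 6 months. A trended and robust prior left Mt1 1422557_s_at in WT 24 months against WT 6 months at a limma adjusted p of 0.0733. Causes of these shifts were not tested where none is given. Among the 3 housekeeping genes used for centring, 1 was itself lower by the limma test in KO 6 months than in WT 6 months. The same count was lower in WT 24 months than in WT 6 months.

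Leaving out 1 array at a time gave 0 to 2 members called and 0 to 3 passing for KO 24 months tumor against WT 24 months (5 to 226 of all called), 0 to 3 called and 3 to 6 passing for KO 6 months against WT 6 months, 2 to 5 called for WT 24 months against WT 6 months, 2 to 13 of all called for KO 24 months tumor against KO 6 months, and 0 to 6 passing the interaction. Signs near 0 turned under it. In KO 24 months tumor against WT 24 months the differences ran from -0.066 to 0.0090 for Errfi1 1416129_at, -0.16 to 0.034 for Errfi1 1419816_s_at and -0.30 to 0.012 for Tsc22d3 1425281_a_at. In KO 6 months against WT 6 months they ran from -0.27 to 0.059 for Fkbp5 1448231_at and -0.24 to 0.52 for Mt1 1451612_at. For Nr3c1 1421867_at they ran from -0.19 to 0.031 in WT 24 months against WT 6 months and -0.20 to 0.16 in KO 24 months tumor against KO 6 months.
Of 325 other alternatives for single probe sets, 299 kept direction and side of the threshold, 16 lost the call, 8 gained it and 2 turned sign. Of 600 that left out an array, these counts were 544, 40, 4 and 12.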
